A study of Danio rerio with 4 samples.

Results

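Giant coding sequences were taken here as those of more than 2000 codons, and 247 of the 46061 transcripts with a coding length were analysed as this class. A transcript was kept if its coding length exceeded 2000 codons, if its footprints summed to at least 100 over the 4 libraries, and if no transcript listed before it had the same 4 counts. The data came from whole zebrafish embryos of the wild-type AB strain at 4 hours post-fertilization (hpf), with 2 libraries of disome footprints and 2 of monosome footprints. The labels state for all 4 libraries that sfGFP mRNAs had been injected at the 1-cell stage, so disome and monosome libraries share the genotype, the stage and the injection and differ in the kind of footprint. Whole embryos mix all cell types present at this stage, and the labels do not say whether replicates 1 and 2 came from separate clutches, so the p-values measure only the spread between these libraries, which may be technical. The transcripts are given by Ensembl transcript identifier, and neither the files nor the gene tables used here pair these identifiers with genes. Members are therefore described by coding length, without gene names or functions.

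A ribosome that translates without hindrance protects a short piece of mRNA from nuclease, the monosome footprint. When a leading ribosome stalls and the trailing one runs into it, the stacked pair protects a longer piece, the disome footprint, so the ratio of disome to monosome footprints on a coding sequence follows how often ribosomes on it are found in pairs. Coding sequences of this size encode, among others, cytoskeletal motors, spectrin-like scaffolds, large ubiquitin ligases and chromatin regulators, and a ribosome has to stay on such an mRNA for long to finish 1 protein. Which of these protein classes the members belong to was not determined.

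Of the transcripts with a coding length, 827 (1.8%) exceeded 2000 codons. No footprint fell on 203 of these, and 350 had 1 to 99 footprints over the 4 libraries. The remaining 274 reached 100 footprints, of which 27 repeated the counts of an earlier transcript and were dropped, which left the 247 members. Their coding lengths ran from 2001 to 6418 codons with a median of 2540. Of the members, 49 exceeded 3000 codons, 18 exceeded 4000 and 3 exceeded 5000. The longest coding sequence listed, of 29153 codons, had 4 footprints in total and was not a member. The 2 members just inside the length limit had 2001 and 2004 codons with totals of 233 and 422 footprints, and the closest transcripts outside it had 1996 and 1997 codons with totals of 531 and 415. The lowest total among the members was 101, and the highest among long coding sequences that missed the minimum was 99. Of the footprints on the members, 91.7% were monosome footprints, so the count minimum was met mostly through these.

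Members were not independent of each other. Transcripts of 1 gene overlap and seem to have received the same footprints repeatedly, since members listed within 10 lines of each other often had nearly the same counts. The 247 members fell into 157 such runs, of which 97 held a single member and 60 held the other 150 members, up to 8 in a run. Within these 60 runs the log2 disome-to-monosome ratio spanned a median of 0.0419, and in 52 of them less than 0.25, although the widest run spanned 0.999. Counts of members are therefore also given below with 1 member per run, that with most footprints. Runs can also join members with unlike counts. In 1 run, a member of 4550 codons had 2387 footprints and another of 3420 codons had 215. Taking 1 member per run may thus also drop separate coding sequences.

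The libraries held 473057 and 364830 counts for disome footprints in replicates 1 and 2, against 2749837 and 3814224 counts for monosome footprints. Every member had at least 1 count in each of the 4 libraries. A member had from 1 to 218 disome footprints in replicate 1 (median 17) and from 2 to 168 in replicate 2 (median 13). It had from 32 to 1700 monosome footprints in replicate 1 (median 148) and from 46 to 2260 in replicate 2 (median 208). Disome counts therefore set the precision of every ratio given here, and 21 of the 247 members had fewer than 10 disome footprints over both libraries. Over the members, the 2 disome libraries differed by no more than counting alone would give (chi-square per degree of freedom 0.989) and the 2 monosome libraries by slightly more (1.26). Over the 8402 transcripts of up to 2000 codons with at least 100 footprints and distinct counts, the same values were 1.19 and 2.11. Over these shorter transcripts, replicates thus differed beyond sampling noise, though by little for disomes. All 4 were treated as separate libraries.

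The giant class took a smaller share of disome than of monosome footprints. It held 1.48% of all counts in disome replicate 1 (95% Clopper-Pearson interval 1.45 to 1.52%) and 1.48% in disome replicate 2 (1.44 to 1.52%), against 2.08% in monosome replicate 1 (2.06 to 2.09%) and 2.08% in monosome replicate 2 (2.07 to 2.10%). These intervals cover counting error only and treat every count as a separate footprint. Members of 1 run often seem to share footprints, so the intervals may be too narrow even for that error. The mean share was 1.48 ± 0.00136% in the disome libraries and 2.08 ± 0.0035% in the monosome libraries (SD, n = 2 each), a ratio of 0.713. Both disome shares lay below both monosome shares, and the groups did not overlap. The log2 of the ratio of 0.713 was −0.49. With library totals as the scale, the median of all 16910 transcripts tested further down lay at −0.35. The class value is weighted by counts and the other is a median over single transcripts, so the distance between them is not a measure of the class. Of the transcripts tested, 46.5% had both disome shares below both monosome shares and 22.3% had both above. Of those over 1000 and up to 2000 codons with at least 100 footprints and distinct counts, 65.6% lay below and 12.3% above. A lower disome share was therefore not particular to the giant class. A permutation test of 2 libraries against 2 could not reach a p-value under 0.33, and the difference in share was not tested. With 1 member per run the shares were 0.938 and 0.935% in the disome libraries, against 1.31% in each monosome library. The members made up 12.6% of the codons of the 8649 transcripts that reached 100 footprints and had distinct counts. Of the counts on all transcripts with distinct counts, without a count minimum, they took 1.64% in each disome library, against 2.31% in each monosome library. Counts were concentrated on few members, as the 10 with most footprints in a library held 21.6% of the class's counts in each disome library, against 18.6 and 18.5% in the monosome libraries.

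Footprints were then compared per length. Density is given as footprints per 100 codons per 1000000 counts of the library. The 4 libraries hold no measure of mRNA level, so density does not separate the amount of an mRNA from the ribosomes on each copy. The median member had a density of 1.47 and 1.60 in disome replicates 1 and 2, against 2.08 and 1.96 in monosome replicates 1 and 2. In raw counts, this was 1.30 disome footprints per 100 codons over both disome libraries, or 1 per 76.9 codons, and 12.8 monosome footprints per 100 codons over both monosome libraries, or 1 per 7.82 codons. Averaged over the 2 libraries of a kind, disome density ran from 0.187 to 21.4 with a median of 1.58, and monosome density from 0.272 to 29.4 with a median of 1.97. The densest member thus exceeded the sparsest by 115 times in disome density and 108 times in monosome density. The middle portion of the members was far narrower, with lower and upper quartiles of 0.741 and 2.72 for disome density and 0.939 and 3.88 for monosome density.

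**Figure D1:**
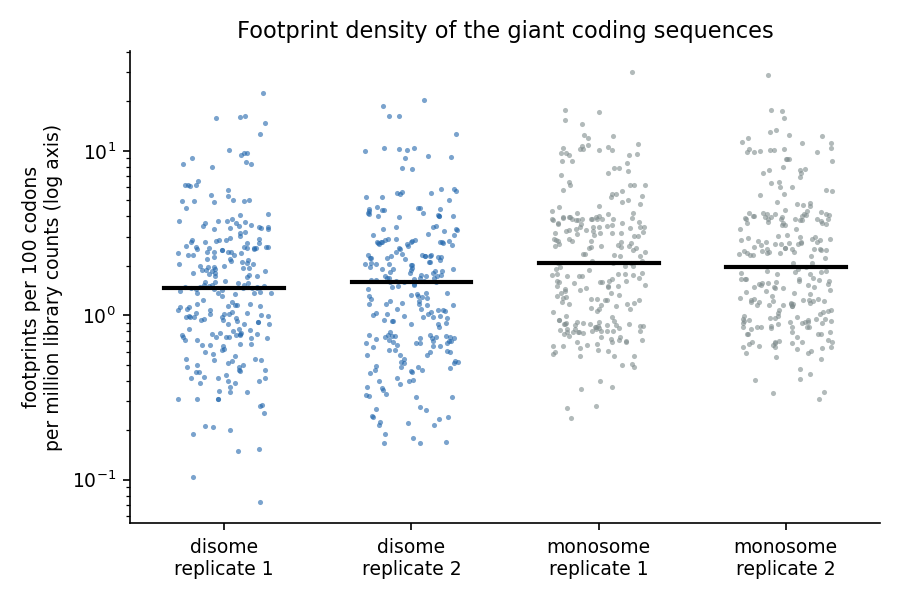
Footprint density of the 247 giant coding sequences in each of the 4 libraries, in footprints per 100 codons per 1000000 library counts on a log axis. Each point is 1 coding sequence and each bar the median, at 1.47 and 1.60 for disomes, against 2.08 and 1.96 for monosomes.

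Densities of single members repeated closely between libraries. Across the 247 members, log2 monosome density in replicate 1 against replicate 2 gave Pearson's r = 0.991, and log2 disome density r = 0.903. The SD of the difference between replicates was 0.635 for log2 disome density and 0.180 for log2 monosome density, whereas log2 density varied across members with an SD of 1.38 in disome and 1.32 in monosome libraries. Disome density followed monosome density, with r = 0.872 for disome replicate 1 against monosome replicate 2 and r = 0.862 for disome replicate 2 against monosome replicate 1. These correlations are across transcripts, which share coding length and, often within a run, footprints, and they are given as descriptions.

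The densest member in both kinds of library was a coding sequence of 2058 codons. It carried 218 and 153 disome footprints, against 1700 and 2260 monosome footprints, or densities of 22.4 and 20.4 against 30.0 and 28.8. Its log2 disome-to-monosome ratio was −0.23 ± 0.11 (SE), and with an adjusted p of 0.099 from the edgeR test described further down it was not called in either direction. Next came 2 members of 2343 and 2329 codons from 1 run, with monosome densities of 17.6 and 17.4, whose ratios of 0.10 and 0.11 were not called either. The other 5 of the 8 densest had 2461, 2665, 2005, 3141 and 2034 codons and monosome densities from 15.7 to 12.3. Those of 2005 and 2034 codons came from 1 run. Of the 5, the member of 2461 codons was called higher and that of 2665 codons lower in disome footprints, so members of similar density lay on both sides.

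At the low end stood 4 members of 4928, 4923, 4924 and 4213 codons with monosome densities of 0.272, 0.304, 0.311 and 0.379. The sparsest, of 4928 codons, carried 9 and 5 disome footprints, against 32 and 58 monosome footprints. With so few disome footprints, its ratio carried an SE of 0.458 and was not called, and the same held for the other 3 of them (SE 0.467 to 0.484).

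The longest member, of 6418 codons, received 16 and 20 disome footprints, against 250 and 307 monosome footprints, with a monosome density of 1.34. Those of 5524, 5210 and 4947 codons had monosome densities of 0.846, 1.52 and 1.37. The 5 longest, which include the sparsest member of 4928 codons, had ratios relative to the median transcript of −0.63, −0.18, −0.65, −0.05 and 0.64 in order of falling length. None was past the FDR of 0.01. The edgeR adjusted p was 0.0116 for the longest and 0.0129 for that of 5210 codons, both past the alternative FDR of 0.05, and from 0.431 to 0.646 for the other 3.

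Members were less dense than shorter coding sequences that met the same count minimum, with mRNA levels not measured in these libraries. The median density was 1.58 over the members and 8.62 over the 8402 shorter transcripts in the disome libraries, and 1.97 over the members and 10.7 over the shorter transcripts in the monosome libraries. For monosomes the shorter ones were 5.44 times denser, and 12 of the 247 members exceeded their median. Along coding length, the median monosome density was 45.7 for up to 100 codons, 22.7 for 101 to 250, 11.7 for 251 to 500, 6.92 for 501 to 1000, 3.82 for 1001 to 2000 and 1.97 above 2000 codons. Part of this order is built into the count minimum, because a long coding sequence reaches 100 footprints at a lower density than a short one. When at least 10 monosome footprints per 100 codons over both libraries were also required, 149 members remained with a median of 3.60, against 4.58 for 960 transcripts of 1001 to 2000 codons. Without a count minimum, the median over distinct transcripts with any footprint was 1.09 above 2000 codons, against 2.08 for 1001 to 2000 codons. A larger share of listed transcripts reached 100 footprints above 2000 codons (33.1%) than at 1001 to 2000 (29.6%) or up to 100 codons (9.04%). Within the class, log2 monosome density and log2 coding length gave r = −0.24 over the 247 members.

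**Figure D2:**
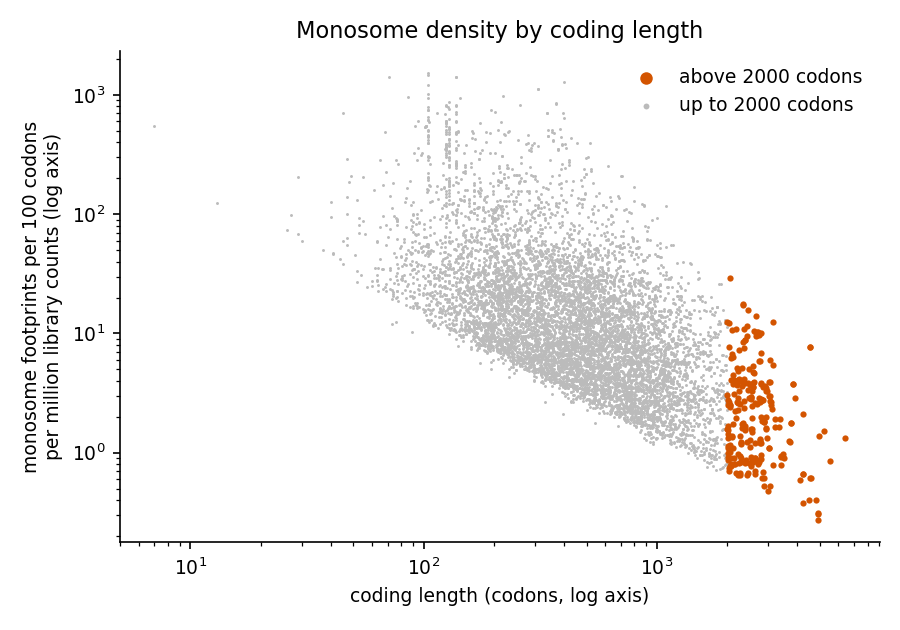
Mean monosome density of both libraries, in footprints per 100 codons per 1000000 library counts, against coding length in codons for the transcripts with at least 100 footprints and distinct counts, both axes logarithmic. The 247 giant coding sequences (orange) lie between 0.272 and 29.4, and the lower edge of the cloud falls with length because the count minimum is a number of footprints.

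Next, the disome-to-monosome ratio was examined. For each transcript it was fitted with edgeR (TMM scaling, quasi-likelihood test) over the 16910 transcripts with at least 20 footprints, and a transcript was called at a Benjamini-Hochberg adjusted p (FDR) under 0.01. The zero of this log2 scale comes from the scaling of the libraries, with the median transcript at −0.13 under TMM and at −0.35 under library totals, a shift of 0.22. The 247 members had a median of −0.23, which was −0.10 relative to the median transcript, with quartiles of −0.58 and 0.27 and a range from −2.0 to 1.76 relative to it. Of the members, 140 (56.7%) lay below the median transcript. Taken from replicates 1 or 2 alone with library totals as the scale, the members' median was −0.52 in both. This was −0.14 and −0.18 relative to the median of all transcripts tested, with those that lacked a disome footprint in the library ranked lowest, and −0.25 and −0.32 relative to the median of those that had one. The sign of this distance depended on which transcripts were counted. With all transcripts that had any count in the fit, the members' median stood at 0.12 relative to the median transcript. Among transcripts with at least 100 footprints, the median relative ratio was −0.28 for up to 100 codons, 0.11 for 101 to 250, 0.10 for 251 to 500, −0.01 for 501 to 1000, −0.21 for 1001 to 2000 and −0.10 above 2000 codons. With the density minimum of 10 monosome footprints per 100 codons, the median was −0.22 above 2000 codons, against −0.21 for 1001 to 2000.

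By its SD, the ratio varied less among the members than among shorter coding sequences. Its SD was 0.626 over the members. Along coding length, it was 1.67 for up to 100 codons, 1.21 for 101 to 250, 1.09 for 251 to 500, 0.906 for 501 to 1000 and 0.812 for 1001 to 2000 codons. Over the 1097 transcripts of 1001 to 2000 codons with a disome count in both libraries, as every member had, the SD was 0.759. The quartiles of these lay 0.892 apart, against 0.853 for the members and 0.892 with 1 member per run. The group of 1001 to 2000 codons was not reduced in this way, so its middle spread was not shown to be wider. Within 1 log2 unit of the median transcript lay 216 members (87.4%), against 71.1% of all shorter transcripts with at least 100 footprints and 79.6% of those of 1001 to 2000 codons. Of the other 31 members, 24 lay below and 7 above this range.

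**Figure D3:**
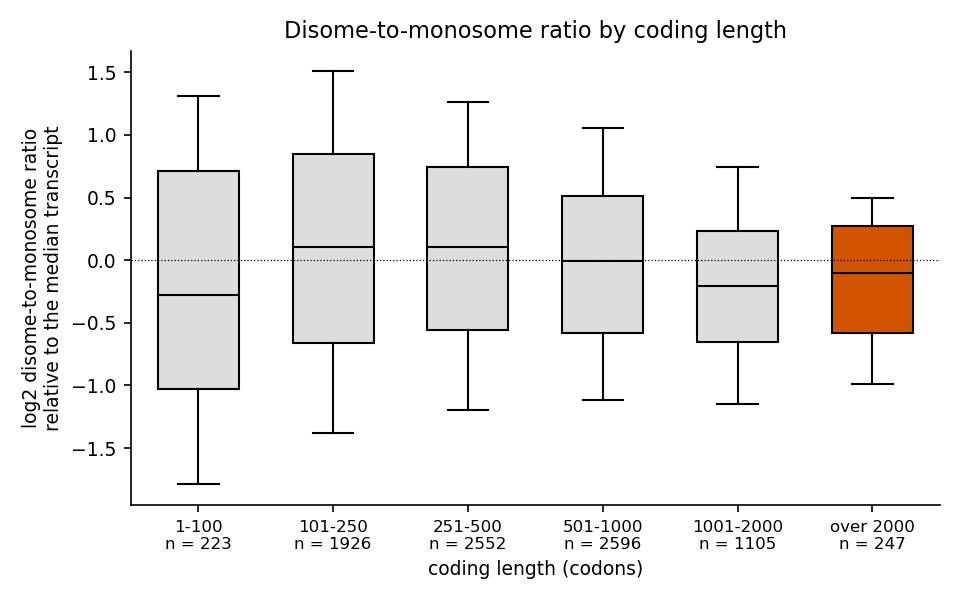
Fitted log2 disome-to-monosome ratio relative to the median transcript, by coding length in codons, for transcripts with at least 100 footprints and distinct counts. Boxes show quartiles and median and whiskers the 10th and 90th percentiles. The group above 2000 codons (orange, n = 247) has an SD of 0.626, against 0.812 for 1001 to 2000 codons. Among transcripts of 1001 to 2000 codons with a disome count in both libraries, the SD is 0.759. The quartiles of these lie 0.892 apart, against 0.853 above 2000 codons and 0.892 there with 1 member per run.

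Counting error accounted for some of this spread. The SD that counting alone would give was 0.319 over the members, or 26.0% of their variance. This share was 11.95% for the shorter transcripts and 19.0% for those of 1001 to 2000 codons. Along coding length, the counting SD was 0.407 for up to 100 codons, 0.344 for 101 to 250, 0.338 for 251 to 500, 0.328 for 501 to 1000 and 0.331 for 1001 to 2000 codons. The part of the spread shared by both replicate numbers, taken from the covariance of their ratios, had an SD of 0.550 over the members, against 0.930 over shorter transcripts and 0.689 for 1001 to 2000 codons. The ratios of replicate 1 and replicate 2 gave r = 0.588 and Spearman's rho = 0.585 over the 247 members. Over 8295 shorter transcripts with a disome count in both libraries, r was 0.762, and over the 1097 of them of 1001 to 2000 codons it was 0.633. Restricted to transcripts with at least 50 disome footprints, the SD of the ratio was 0.555 over 79 members, against 0.907 over 2895 shorter ones, and the replicate r was 0.790 over these members, against 0.919 over these shorter ones. With 1 member per run, the SD was 0.649 over 157 members. The difference in spread between the class and shorter transcripts is a description, and no test of it was made.

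**Figure D4:**
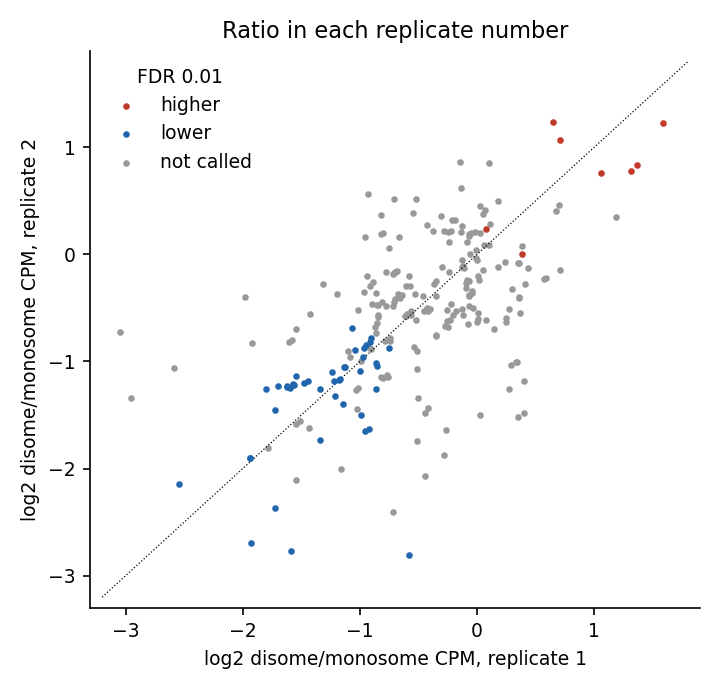
Log2 ratio of disome to monosome CPM (counts per 1000000 library counts) in replicate number 1 (x axis) and replicate number 2 (y axis) for the 247 giant coding sequences, coloured by their call at an FDR of 0.01. Points scatter around the dotted line of equality with r = 0.588, and the members called lower, in blue, fill the lower left.

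Past the FDR of 0.01, 8 members were higher and 43 lower in disome than in monosome footprints, and 196 were not called. These were 3.24% of the members higher and 17.4% lower. Together they made up 20.6% of the class. Over all 16910 transcripts tested, 21.5% were called, 11.8% higher and 9.72% lower. Among the 8402 shorter transcripts with at least 100 footprints, 33.6% were called, 17.3% higher and 16.3% lower, and among the 1105 of 1001 to 2000 codons 26.4%, 7.42% higher and 19.0% lower. The share called lower in the class was therefore close to that of shorter transcripts of this depth, and the share called higher was the lowest of the length groups, which along coding length had 21.5, 24.5, 19.7, 13.4, 7.42 and 3.24% called higher. The shares called higher and lower depend on the scaling, as library totals gave 4 members higher and 69 lower, beside 9.24% higher and 14.9% lower over all transcripts tested. Of 122 members with at least 400 footprints, 32.8% were called, 3 (2.46%) higher and 37 (30.3%) lower, against 49.6% of 3530 shorter transcripts, 25.2% higher and 24.4% lower. DESeq2 called 2 members higher and 18 lower, all 20 of them among the 51, beside 11.9% higher and 5.56% lower over the 12320 transcripts to which it gave an adjusted p. Without disome replicate 1, edgeR called 3 members higher and 15 lower, beside 8.01 and 4.72% of all transcripts tested. Without disome replicate 2 it called 7 higher and 25 lower, beside 9.93 and 5.96%. Without monosome replicate 1 it called 5 higher and 29 lower, beside 11.4 and 7.91%, and without monosome replicate 2 it called 9 higher and 26 lower, beside 12.7 and 7.69%.

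All 51 calls had the same sign in both replicate numbers, which the choice by FDR in these same libraries favours. Over all 247 members the sign was the same in 75.3%, against 82.5% of 8295 shorter transcripts with a disome count in both libraries. In CPM, both disome values lay below both monosome values in 161 members (65.2%; 46.5% of all transcripts tested and 65.6% of those of 1001 to 2000 codons) and above both in 17 (6.88%; 22.3% and 12.3%). Counted by run, 28 of 157 runs (17.8%) gave a call of lower and 6 (3.82%) of higher. At an unadjusted p under 0.05 stood 90 members (36.4%), against 39.1% of all transcripts tested. The smallest called ratio was 0.37 in size, and the largest that was not called was 1.82 in size. The median SE was 0.237 among called and 0.311 among other members, and the SE of single members ran from 0.109 to 0.710.

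**Figure D5:**
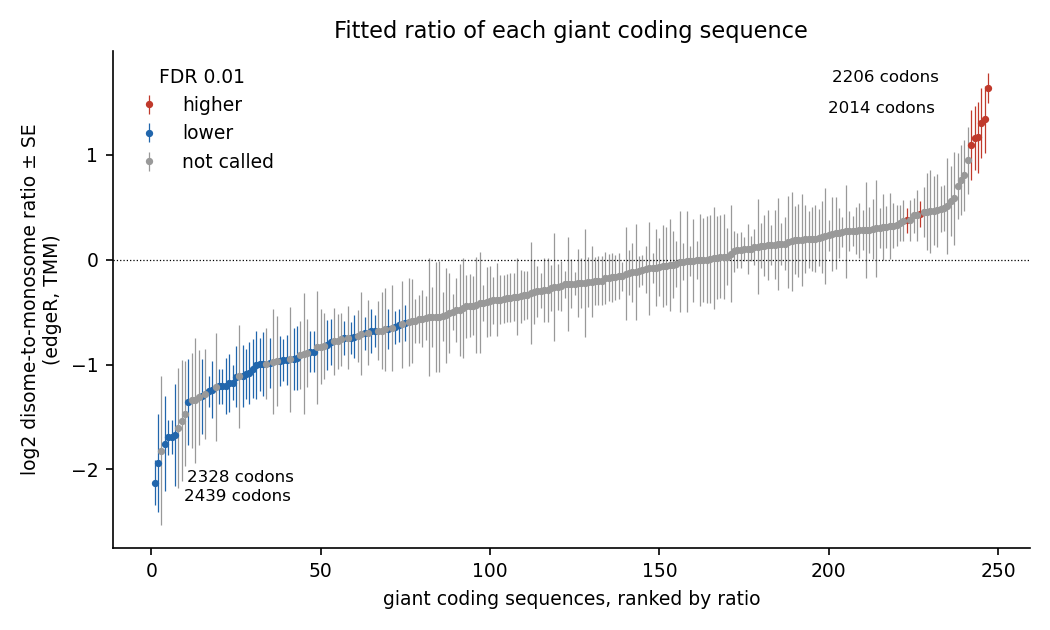
Fitted log2 disome-to-monosome ratio (edgeR with TMM, ± SE) of each of the 247 giant coding sequences, ranked by ratio. The 8 called higher (red) and 43 called lower (blue) at an FDR of 0.01 are marked, and the ratios run from −2.13 at 2439 codons to 1.64 at 2206 codons.

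The largest excess of disome footprints was on ENSDART00000115172.4, a coding sequence of 2206 codons. It carried 153 and 102 disome footprints, against 296 and 456 monosome footprints. In CPM these were 323 and 280 in the disome libraries, against 108 and 120 in the monosome libraries, and both disome values exceeded both monosome values. Its log2 ratio was 1.64 ± 0.14 (SE), or 1.76 above the median transcript (edgeR adjusted p = 2.37e-29), and it was called under each of the 9 alternatives tried. With a disome density of 14.7 and 12.7, it was the fifth richest in disomes among the giant coding sequences, whereas 39 members surpassed its monosome density of 4.88 and 5.42.

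ENSDART00000127594.5, of 2014 codons, followed. Its counts were 23 and 14 disome footprints, against 52 and 82 monosome footprints, or 48.6 and 38.4 CPM in the disome libraries, against 18.9 and 21.5 CPM in the monosome libraries. The groups did not overlap, but the ratio of 1.34 ± 0.32 (SE, edgeR adjusted p = 0.000220) rested on 37 disome footprints, and without disome replicate 1 it was 1.11 and not past the FDR (adjusted p = 0.0820). A neighbouring member of 2012 codons from the same run, with 21 and 12 disome footprints, against 49 and 73 monosome footprints, had similar counts and was not called by DESeq2 (adjusted p = 0.0118) or without disome replicate 1 (edgeR adjusted p = 0.147).

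The other 5 members called higher, described here after their values were seen, were of different kinds. None of them was called by DESeq2, with adjusted p from 0.0144 to 0.0368. Each also lost its edgeR call when 1 library was left out. Without disome replicate 1 this held for those of 2862, 2294 and 2796 codons (adjusted p from 0.0298 to 0.279), without disome replicate 2 for those of 2635, 2294 and 2461 codons (0.0653 to 0.137) and without monosome replicate 1 for those of 2294, 2796 and 2461 codons (0.0104 to 0.0294). Those of 2862, 2635 and 2294 codons had ratios of 1.17, 1.16 and 1.10 with 32 to 38 disome footprints each, those of 2635 and 2294 codons coming from 1 run. Those of 2796 and 2461 codons were among the densest of the class and had small ratios with small errors. On the member of 2796 codons, there were 167 and 106 disome footprints, against 743 and 1105 monosome footprints, and a ratio of 0.44 ± 0.13. On that of 2461 codons, there were 190 and 168 disome footprints, against 1046 and 1494 monosome footprints, and a ratio of 0.37 ± 0.12.

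The largest deficit was on ENSDART00000168930.2, of 2439 codons. It carried 20 and 18 disome footprints, against 677 and 833 monosome footprints, or 42.3 and 49.3 CPM in the disome libraries, against 246 and 218 CPM in the monosome libraries. Its log2 ratio was −2.13 ± 0.21 (SE), or −2.0 relative to the median transcript (edgeR adjusted p = 3.37e-22), and the call held under each of the 9 alternatives tried. Its monosome density of 10.1 and 8.95 was surpassed by 21 members, whereas its disome density of 1.73 and 2.02 was surpassed by 100.

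ENSDART00000152027.2, of 2328 codons, carried 5 and 2 disome footprints, against 111 and 135 monosome footprints. These were 10.6 and 5.48 CPM in the disome libraries, against 40.4 and 35.4 CPM in the monosome libraries. Its ratio was −1.94 ± 0.47 (SE, edgeR adjusted p = 0.000265), and the call was lost with DESeq2 (−1.95, adjusted p = 0.0175) and without disome replicate 2 (−1.57, edgeR adjusted p = 0.0284). It was 1 of 3 called members with fewer than 10 disome footprints, all of them called lower.

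Calls of lower also included long members with many footprints, picked here after their values were seen. A pair of transcripts of 4550 codons from 1 run had 44 and 34 disome footprints each. Against these stood 981 and 1328 monosome footprints on the denser of the pair, which had a ratio of −1.69 ± 0.17. The member of 2665 codons, the fifth densest of the class, carried 73 and 39 disome footprints, against 1073 and 1353 monosome footprints, and a ratio of −1.26 ± 0.15. The 43 members called lower fell into 28 runs and ranged from 2004 to 4550 codons.

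Within the class, ratios were compared across coding length and density. Sorted by length into 4 groups of 62, 62, 61 and 62 members (2001 to 2231, 2235 to 2540, 2541 to 2867 and 2871 to 6418 codons), the median ratio relative to the median transcript was 0.07, −0.20, −0.11 and −0.17. Calls of higher numbered 3, 2, 3 and 0, and calls of lower 3, 12, 20 and 8. These counts take each member of a run separately, and calls by run were not computed for these groups. All 43 calls of lower came from 28 runs, so overlapping transcripts can raise the count of a group. Over all transcripts tested, 11.8% were called higher and 9.72% lower. The SD within these groups was 0.657, 0.628, 0.603 and 0.588. Over all members, the fitted ratio and log2 coding length gave r = −0.11, so little of the variation inside the class went with length.

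Sorted by the monosome density of replicate 2 into 4 groups of 62, 62, 61 and 62 members, the median relative ratio was 0.11, −0.09, −0.10 and −0.25 from the sparsest to the densest. Because the monosome count enters both the ratio and the density, the ratio of replicate 1 alone, scaled by library totals, was also compared across these groups, and its medians were −0.34, −0.47, −0.70 and −0.63. The ratio of replicate 1 against the log2 monosome density of replicate 2 gave r = −0.11, and the ratio of replicate 2 against the density of replicate 1 gave r = −0.07, over 247 members each. Across the same groups, 0, 7, 12 and 24 members were called lower and 4, 1, 0 and 3 higher, beside 9.72% lower and 11.8% higher over all transcripts tested. The calls rest on all 4 libraries, so the monosome count of replicate 2 enters both the groups and the calls. Members of 1 run were again counted separately. The median SE was 0.449, 0.329, 0.237 and 0.172 and the median number of disome footprints 13, 24, 48 and 88, and the part of this depth in the calls was not tested. In the sparsest group, where the median SE was 0.449, a member needed a large ratio to be called.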

How the data were processed

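Embryos were lysed with cycloheximide and digested with RNase I, and disome and monosome footprints were size-selected. The authors preprocessed reads (fastp) and aligned them to the GRCz11 genome by STAR (2.7.0a in the submitters' processing notes, which also name CASAVA 1.8), keeping unique hits with up to 1 mismatch. The deposited values are raw counts of footprints on each coding sequence, not normalized, with its length in codons. The counting tool and annotation release are not given in the sources used here. Since multi-mapping reads had been removed, genes with near-identical copies lose reads. Footprints shared by overlapping transcripts seem to appear on each, as neighbouring transcripts often had nearly the same counts.

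Counts were tested with edgeR 4.0.16 in R 4.3.3 (TMM, quasi-likelihood, no replicate block, at least 20 counts, Benjamini-Hochberg over 16910 transcripts, FDR 0.01). The SE was the size of the log2 ratio divided by the square root of F. Alternatives were DESeq2 1.42.0, library totals, other filters, an FDR of 0.05, a replicate block, leaving out each library, other length and count limits and, added after the data were seen, 1 member per run. Tables and plots used pandas 2.3.3, scipy 1.17.1 and matplotlib 3.10.9. Disome counts on members (medians of 17 and 13 per library) limit precision.

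Members and lists were chosen with earlier results of these data known. Named members were, with transcripts not paired with genes, at most 2 identifiers in each direction among calls of the same sign in both replicate numbers, ranked by ratio, and by coding length the 8 densest, the 4 sparsest and the 5 longest. Lists of genes by protein class could not be matched and were not used.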

Additional observations from a re-analysis of the deposited data

How the results depend on the processing

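Against 8 higher and 43 lower, library totals gave 4 and 69, DESeq2 gave 2 and 18, and a fit without a filter on low counts gave 3 and 59. The share called over all transcripts was not computed without the filter or with a replicate block. Leaving out 1 library at a time, with the lone library assumed to vary like the other kind, gave 3 to 9 higher and 15 to 29 lower. Changing the limits changed the number of members but not the fit, in which 11.8% of all transcripts tested were higher and 9.72% lower. With at least 200 footprints, 3 of 183 members (1.64%) were higher and 43 (23.5%) lower, and with at least 400, 3 of 122 (2.46%) and 37 (30.3%). Of shorter transcripts with at least 400 footprints, 25.2% were higher and 24.4% lower, so the shares over all transcripts are not matched in depth. Above 1500 codons, 25 of 538 (4.65%) were higher and 106 (19.7%) lower, and above 2500 codons, 3 of 132 (2.27%) and 28 (21.2%). Taken 1 per run, 6 of 157 (3.82%) were higher and 28 (17.8%) lower. At an FDR of 0.05, with filterByExpr and with identical counts dropped only among members, both counts stayed within 1.5 times.

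The median ratio relative to the median transcript, −0.10, turned to 0.12 without a filter, where many transcripts with few counts enter the median of all. It was −0.16 with filterByExpr, −0.14 when 1 library was left out (lowest −0.143, highest −0.137), −0.18 at 200 and −0.17 at 400 footprints, −0.17 above 1500 and −0.15 above 2500 codons, and −0.17 with 1 per run. The SD of 0.626 became 0.583 and 0.568 at 200 and 400 footprints, 0.714 and 0.584 above 1500 and 2500 codons, 0.649 with 1 per run, and 0.621 to 0.718 when 1 library was left out. Each of these lies below the 0.812 of 1001 to 2000 codons with all libraries. Each also lies below the 0.759 of those with a disome count in both. The values 0.812 and 0.759 were not recomputed at 200 or 400 footprints, with 1 per run or with 1 library left out. The set above 1500 codons shares transcripts with the group of 1001 to 2000 codons. In these settings, the difference in spread was therefore not compared like for like.

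The members' median monosome density was 0.191 of that of all distinct transcripts with at least 100 footprints. It was 0.191 to 0.202 when 1 monosome library was left out, 0.280 and 0.377 at 200 and 400 footprints, 0.263 and 0.175 above 1500 and 2500 codons, and 0.180 with 1 per run. These limits were changed for the members only, and the transcripts they were set against still had at least 100 footprints. The values at 200 and 400 footprints are therefore not matched in depth. The disome share over the monosome share, 0.713, was 0.711 with identical counts entered once in the totals, 0.701 and 0.702 at 200 and 400 footprints, 0.697 and 0.645 above 1500 and 2500 codons, and 0.716 with 1 per run. All of these kept their direction. For these values without a test, most moves exceed the SD between 2 replicates. Some are large, as the relative density rose from 0.191 to 0.377 at 400 footprints and the median ratio changed sign without a filter.

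The deviations of same-numbered libraries from their group means gave r = −0.02 over 8649 transcripts and 0.05 over the members. Disome replicates differed by little more than counting error. Such small values therefore cannot show whether same-numbered libraries came from the same embryos. With a replicate block, 7 members were higher and 41 lower, all 48 among the 51. The alternative with 1 member per gene was not run, since transcripts were not paired with genes.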
